A study of Mus musculus with 8 samples.

Results

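The comparison described here is that of 17β-estradiol (E2) with vehicle in mouse primary follicular cells that had received a control siRNA. It rests on 4 of the 8 arrays of the series, 2 with E2 and 2 with vehicle, chosen by their titles and paired by replicate number. The donors were female Swiss mice aged 8 weeks, 5 of them pooled per replicate. The cells came from the preantral follicles of their ovaries and were mostly granulosa cells after 9 days in culture. All cells were transfected with 12 pmol of siRNA and a red fluorescent reporter plasmid and grown for 24 h. The siRNA was a non-targeting pool (control siRNA) or a pool directed against Foxl2 (FOXL2 siRNA), the gene of a forkhead factor that maintains granulosa cell identity. E2 at 100 nM, or vehicle, was added 10 h before lysis, and the descriptions do not settle whether the 24 h with siRNA included that time or preceded it. Medium during the hormone experiment was free of phenol red and androstenedione and held charcoal-treated serum. The other 4 arrays, from cells with FOXL2 siRNA and vehicle (2) or E2 (2), served for comparison. All 8 cultures had therefore been transfected, and none shows the effect of E2 on cells without siRNA. Each group was 2 samples, described as independent duplicates. P-values measure only the spread left after differences between replicate numbers were removed, pooled over the 4 groups and partly shared across genes.

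Estradiol acts mainly through 2 nuclear receptors, ERα (Esr1) and ERβ (Esr2), which bind DNA at estrogen response elements or are tethered to it through other factors, and which recruit coactivators or corepressors. Granulosa cells are the main ovarian source of estradiol, since they hold aromatase (Cyp19a1), and they also respond to it, chiefly through ERβ. In the ovary, ERβ and FOXL2 are known to keep the testis factor Sox9 repressed.

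Expression was measured with one-colour Agilent arrays, on which the brightness of a probe reports the abundance of a transcript. Levels are given as scaled signal, the log2 of the processed intensity of a gene (the mean over its probes, each divided by the 75th percentile of its array). A change is E2 minus vehicle on that scale, and the value after ± is its standard error (SE) from the fit; folds are those of the scaled signal. Levels were compared within a gene only, and where genes are called the brightest of a list, signal served only to choose which to name. Of 24232 genes with a probe, 15637 had a median signal of at least 10 over the 8 arrays and were tested. The lowest median that was kept was 10.01 and the highest that was left out was 9.98. Replicates of a group correlated at 0.989 to 0.992 over genes, and 51.4 to 55.7% of the probes of an array were well above background.

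The targeted gene was examined first. Foxl2 had a probe pair that disagreed. One probe read 7.00, 6.59, 6.76 and 6.35 on the 4 arrays labelled control siRNA and 5.82, 5.47, 6.03 and 5.50 on the 4 labelled FOXL2 siRNA, and the 2 sets did not overlap. The other probe read 13.75 to 14.45 with control siRNA and 13.95 to 14.40 with FOXL2 siRNA, and these did overlap. Averaged over both probes on the linear scale, where the bright one dominates, Foxl2 read 13.46 and 13.01 with vehicle and 12.94 and 12.76 with E2 on the control siRNA arrays, a change of -0.38 ± 0.10 that did not pass the test (adjusted p = 0.117). Esr2 was bright on every array and read 11.91 and 11.65 with vehicle and 11.71 and 11.70 with E2, a change of -0.07 with a 95% interval of -0.30 to 0.16. Esr1 was dim, at 4.03 and 4.06 with vehicle and 4.23 and 4.31 with E2. Cyp19a1, the aromatase gene, was also dim, and its change of 0.07 had an interval of -0.69 to 0.83. No change in either receptor gene or in aromatase was detectable with these 4 arrays.

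With control siRNA, E2 changed 182 genes, 1.16% of those tested, at an adjusted p under 0.05. Of these, 142 (0.908%) were lower with E2 and 40 (0.256%) were higher. The test was limma with the 4 group means over all 8 arrays, the replicate number as a block and a Benjamini-Hochberg adjustment over the 15637 genes. This predominance of lower signal holds for the labels as deposited, and every direction given here for control siRNA would turn if the E2 and vehicle labels of these 4 arrays were exchanged. It is opposite to the direction in which the study describes the E2 response of Hsd11b2, Tacc1, Angpt2, Cbs, Sox8 and Sox9. Whether the labels are right was not tested. The lower genes ranged from -2.76 to -0.39 with a median of -0.79, and 50 of them changed by at least 1. The higher genes ranged from 0.37 to 1.47 with a median of 0.64, and 2 of them changed by at least 1. Over all genes tested the median change was -0.01 and the quartiles were -0.11 and 0.08. All 182 genes moved the same way in both replicate pairs, which follows largely from the paired test that chose them. Of all genes tested, both pairs were lower in 28.7% and higher in 24.5%. In 134 of the 142 lower genes both E2 arrays lay below both vehicle arrays, as they did in 15.8% of all genes, and in 32 of the 40 higher genes both lay above, as in 11.3% of all genes. All 40 higher genes and 131 of the lower ones were well above background on all 4 arrays.

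**Figure D1:**
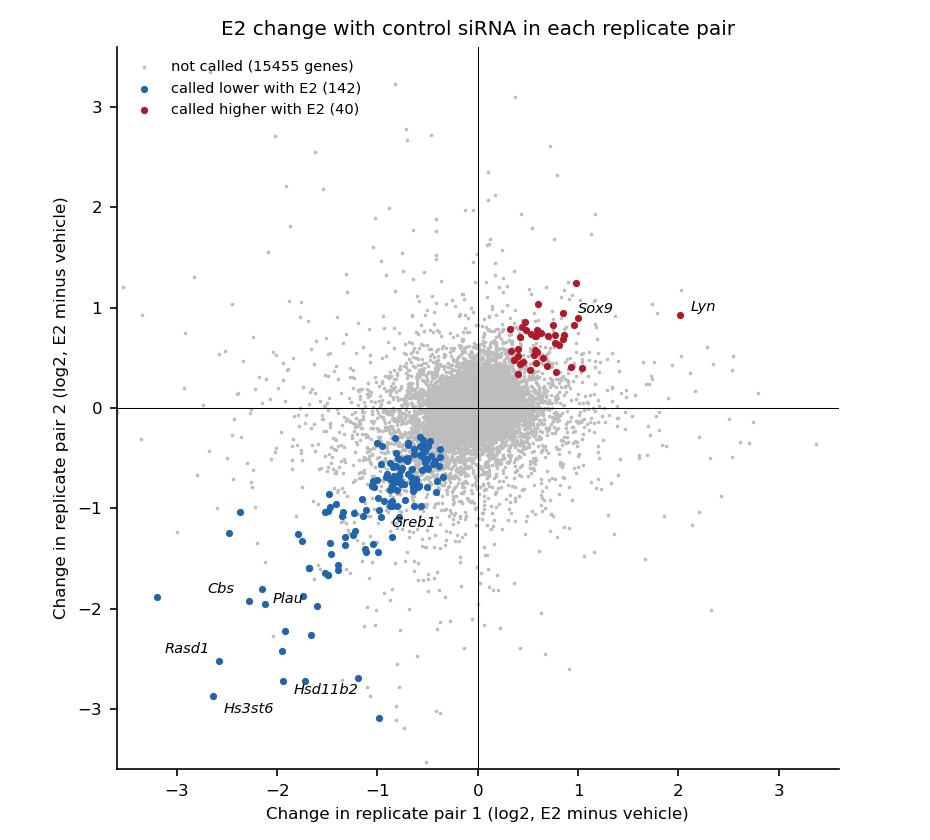
Change with E2 in replicate pair 1 (horizontal axis) against replicate pair 2 (vertical axis), each on the log2 scale, for the 15637 genes tested with control siRNA. The 142 genes called lower lie in the lower left, with Hs3st6 the farthest of the labelled genes on both axes, and the 40 called higher lie in the upper right. The axes end at 3.6 and leave out 12 genes, none of them called.

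The number of calls depended on the pairing. Without the replicate block, 3 genes (0.0192%) passed the same test, all lower with E2: Cyp2s1 (adjusted p = 0.00197), Hs3st6 (adjusted p = 0.0141) and Cbs (adjusted p = 0.0141), with 1580 genes (10.1%) at an unadjusted p under 0.05 with the block and 716 (4.58%) without it. Leaving out E2 replicate 1 gave 38 calls and leaving out E2 replicate 2 gave 65, while leaving out any of the other 6 arrays gave 123 to 239. With each of the 8 arrays left out in turn, the genes called every time were 25 of the 142 lower genes and none of the 40 higher genes. Leaving out a FOXL2 siRNA array does not alter the change with control siRNA, only the spread that it is tested against. A variance model without the intensity trend gave 2 calls, and no filter on dim genes gave 14. The methods of the study took as E2 targets those genes whose means differ by at least 1 and by more than 2 times the sum of both SDs, with no p-value. By that rule there were 71 targets (0.454% of the genes tested), 9 higher (0.0576%) and 62 lower (0.396%) with E2. These values were not centred per replicate, a step the study's methods include. Centred within replicate numbers, there were 83 targets, 11 higher and 72 lower.

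Of the genes that estrogen is known to act on, Greb1 and Rasd1 fell. Greb1, a classical target and cofactor of estrogen receptors, read 14.74 and 14.60 on the vehicle arrays and 13.75 and 13.58 on the E2 arrays. The groups did not overlap, and Greb1 fell by 1.00 ± 0.14 (adjusted p = 0.00416), or 2.00-fold. Its 2 probes fell by 1.04 and 0.98. Rasd1, which encodes a small GTPase induced by steroid hormones, read 7.37 and 6.97 with vehicle and 4.79 and 4.44 with E2. It fell 5.87-fold (-2.55 ± 0.27; adjusted p = 0.000845), also in each of the 8 fits that left out an array. With normexp background correction, which models the signal around each spot and shrinks the changes of dim probes, Rasd1 changed by -1.23 and was still called. Of 36 listed estrogen-responsive genes, 31 were measured, of which these 2 fell, none rose and 29 did not pass. Here and in the lists below, fell and rose mean called, as were 1.16% of all genes tested. In this list 17 changes were above 0, the highest 1.45, and 14 were below, with a median of 0.05. At an unadjusted p under 0.05 (limma) the list held 13 genes, beside 10.1% of all genes. Pgr, the progesterone receptor gene and a standard target, was not among the genes kept. The 3 brightest members that did not pass were Ctsd (change -0.01), Xbp1 (-0.12) and Cyp26b1 (-0.51, adjusted p = 0.0518). Bcas1 and Bcar3, named for breast cancer amplification and antiestrogen resistance, also fell, by 0.94 and 0.91. Both were called, and they were named after their values were seen.

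Sequence upstream of Greb1 is shown because it is the best known estrogen target among the called genes and holds 3 estrogen half-sites over its 2 listed start sites. Car14 is shown as a leading decrease with 1 half-site. Afap1l2 and Fam163a also held 1, whereas Cbs, Chst8, Bcan, Slc13a3 and Uevld, leading decreases as well, held none. Capitals mark each GGTCA or its reverse complement in the 250 bases before the start site (RefSeq, GRCm38.p6).
Greb1, chr12:16757240-16757489, minus strand: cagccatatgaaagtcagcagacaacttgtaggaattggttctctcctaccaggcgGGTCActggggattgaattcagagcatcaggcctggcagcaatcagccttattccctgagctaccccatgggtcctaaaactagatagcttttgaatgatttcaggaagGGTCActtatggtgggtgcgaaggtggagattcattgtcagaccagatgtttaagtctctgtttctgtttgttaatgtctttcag
Greb1, chr12:16800887-16801136, minus strand: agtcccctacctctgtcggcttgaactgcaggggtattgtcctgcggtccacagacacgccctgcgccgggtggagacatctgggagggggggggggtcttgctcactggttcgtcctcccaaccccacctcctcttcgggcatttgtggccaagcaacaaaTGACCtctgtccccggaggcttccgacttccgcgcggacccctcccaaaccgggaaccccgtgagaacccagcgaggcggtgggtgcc
Car14, chr3:95904686-95904935, minus strand: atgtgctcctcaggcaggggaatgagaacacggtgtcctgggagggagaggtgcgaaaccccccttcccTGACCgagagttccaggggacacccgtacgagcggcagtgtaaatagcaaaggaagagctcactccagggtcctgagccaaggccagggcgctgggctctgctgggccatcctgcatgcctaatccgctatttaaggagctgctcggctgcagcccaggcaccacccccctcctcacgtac
Counted from the start site, the first bases of these matches are at -194 and -85 in the first Greb1 window, at -88 in the second and at -181 upstream of Car14.

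The same 250 bases were searched on both strands for all genes with a promoter in the RefSeq table. Of the lower genes, 98 of 142 had one, and 43 of these (43.9%) held the half-site GGTCA. Of the higher genes, 23 of 40 had one, and 10 (43.5%) held it. Among all genes kept, 11589 had one and 37.7% held it, and 38.4% of all genes in the table did. The full palindromic estrogen response element, which contains the half-site, was in none of the called genes' windows and in 2 of the 11589. The AP-1 motif TGANTCA was in 5 of the 98 lower genes (5.10%), in none of the 23 higher ones and in 5.79% of all. The SP1 box GGGCGG was in 61.2% of the lower, 60.9% of the higher and 59.8% of all. No test was made of these shares, and a match is not a binding site. Hs3st6, Rasd1, Hsd11b2, Plau and Sox9 were not matched to the promoter table.

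Hs3st6, Chst8 and Bcan, genes of sulfation and proteoglycans, were among the leading decreases. Hs3st6 encodes an enzyme that adds sulfate to heparan sulfate chains at the 3-O position of glucosamine. Its signal was 8.67 and 9.29 with vehicle and 6.04 and 6.41 with E2, the largest decrease of all called genes at 6.76-fold (-2.76 ± 0.14; adjusted p = 4.1e-06). It passed in every fit with an array left out. Chst8, a sulfotransferase that acts on the N-glycans of pituitary hormones, read 11.03 and 11.07 with vehicle and 9.29 and 9.19 with E2, and it fell 3.5-fold (-1.81 ± 0.15; adjusted p = 0.000126). Papss2, which makes the sulfate donor used by all these enzymes, read 13.77 and 13.08 with vehicle and 12.98 and 12.41 with E2. The lower E2 array and the lower vehicle array of Papss2 were both replicate 2, and within each pair the fall was close to its mean of -0.73 ± 0.09. Among the 30 measured genes of heparan sulfate synthesis and sulfation, Hs3st6 and Papss2 fell, none rose and 28 did not pass, with a list median of 0.01. The 3 brightest that did not pass, Sdc4 (-0.02), Sulf2 (-0.13) and Gpc1 (0.17), are a core protein, a sulfatase and another core protein.

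Chst sulfotransferases and small leucine-rich proteoglycans are families picked after their values were seen. Of 8 measured Chst sulfotransferases, Chst8 and Chst11 fell, and all 8 had a change below 0, with a median of -0.31. Chst11 makes chondroitin 4-sulfate and changed by -0.69 ± 0.08. Among 9 measured small leucine-rich proteoglycans, matrix proteins that bind collagen, Omd (-1.21 ± 0.20) and Ogn (-0.91 ± 0.12) fell and none rose. Bcan, the core protein of a hyaluronan-binding proteoglycan, read 5.30 and 5.55 with vehicle and 3.58 and 2.83 with E2, where 1 of the 2 arrays was well above background, and changed by -2.22 ± 0.36 (adjusted p = 0.0115), or by -0.77 with normexp. Of 30 measured collagens and interstitial matrix genes, Col16a1 alone was called, at -0.63 ± 0.10, and 1 of its 3 probes that were well above background moved the other way. Sparc (-0.04), Fn1 (-0.06) and Loxl2 (0.28) were the brightest of those that did not pass.

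Steroid and sulfur metabolism each held one large decrease. Hsd11b2, the enzyme that inactivates glucocorticoids, read 7.21 and 6.99 with vehicle and 5.27 and 4.26 with E2. The groups did not overlap, but the E2 arrays were a full log2 unit apart. Hsd11b2 fell 5.04-fold (-2.33 ± 0.45, limma adjusted p = 0.0324) and was not called without E2 replicate 2. With normexp its change was -1.25. Of the 24 measured genes of steroid hormone synthesis and inactivation, Hsd11b2 fell, none rose and 23 did not pass. The brightest of these, Hsd3b1 (-0.20), Fdx1 (-0.04) and Cyp11a1 (-0.17), act in the synthesis of progesterone. Cbs, which joins homocysteine to serine in the first step of transsulfuration, read 9.32 and 9.41 with vehicle and 7.04 and 7.49 with E2. It fell 4.31-fold (-2.11 ± 0.15; adjusted p = 3.82e-05) and passed whichever of the 8 arrays was left out. Cdo1, which oxidises the cysteine that this route makes, changed by -0.86 ± 0.17 (adjusted p = 0.0347). Of 21 measured genes of the methionine cycle and transsulfuration, these 2 fell, none rose and 19 did not pass. Cth, the enzyme after Cbs, had a change of 0.46 that did not pass (adjusted p = 0.0835), while Mat2b (0.07), Mat2a (0.03) and Mthfd1 (-0.02) had smaller changes.

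Among cytochrome P450 genes Cyp2s1 stood out for its regularity. It encodes an enzyme that acts on retinoids and lipid peroxides and is induced through the aryl hydrocarbon receptor. Its signal was 12.12 and 12.19 with vehicle and 10.62 and 10.53 with E2, a 2.99-fold fall (-1.58 ± 0.08; adjusted p = 4.1e-06) in which replicates differed by less than 0.10. Tiparp, a target and repressor of that receptor, changed by -0.46 ± 0.08 (adjusted p = 0.0249). Of 21 measured genes in the list of this receptor and xenobiotic P450 genes, these 2 fell, none rose and 19 did not pass. Cyp2u1 (0.16), Cyp1b1 (-0.21) and the receptor gene Ahr (-0.13) were the brightest of the latter. Crabp2, which carries retinoic acid to its nuclear receptors, read 15.41 and 15.32 with vehicle and 14.57 and 14.57 with E2 and changed by -0.80 ± 0.12 (adjusted p = 0.00713). It was 1 of 15 measured retinoic acid genes, a family picked after its values were seen, and the only one called.

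The 2 plasminogen activators moved in opposite directions. Plau, the urokinase gene, read 9.90 and 9.91 with vehicle and 7.75 and 8.10 with E2 and fell 3.94-fold (-1.98 ± 0.18; adjusted p = 0.000223). Plat, the tissue-type activator, read 10.55 and 10.55 with vehicle and 11.24 and 10.97 with E2 and rose 1.47-fold (0.55 ± 0.09; adjusted p = 0.0137). Both act on plasminogen, and in follicles such proteolysis is known to loosen the wall at ovulation. Their inhibitor Serpine2 (0.09), the receptor Plaur (0.02) and Plgrkt (0.02) did not pass. This family of 6 measured genes was picked after its values were seen.

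Single genes of ion and solute handling fell, while the carrier Slc13a5, given below, rose. Car14, a membrane carbonic anhydrase, read 8.78 and 8.28 with vehicle and 7.12 and 6.02 with E2 and fell 3.9-fold (-1.96 ± 0.19; adjusted p = 0.000566). Slc13a3, a sodium-coupled dicarboxylate carrier, was at 4.79 and 4.70 with vehicle and not well above background on either E2 array (adjusted p = 0.0461). With E2 readings under the floor, the lowest signal of an array well above background, raised to it, its fall was 4.4-fold. Its change with normexp was -0.52, still called. Slc4a1, the anion exchanger, read 5.05 and 7.03 with vehicle, values nearly 2 log2 units apart, and was not well above background with E2. Its fitted fall was 4.09-fold (adjusted p = 0.0461), and neither E2 reading lay under the floor. The change of Slc4a1 was -0.91 with normexp, and without vehicle replicate 2 it was -1.10 and was not called. Of 26 measured voltage-gated and ligand-gated channels, Asic4 (-1.54 ± 0.27), Cacna1a (-1.52 ± 0.14) and Kcnk1 (-0.69 ± 0.10) fell, none rose and 23 did not pass. Cacna1a is the pore of a neuronal calcium channel, and its 2 probes fell by 1.53 and 1.50. Asic4 was dim, well above background on 1 of 2 E2 arrays, and not called with normexp (change -0.42). Cacnb3 (0.05), Kcna4 (0.07) and Cacna2d1 (-0.06) were the brightest of the others.

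The rest of the 15 leading decreases, the largest among called genes with a full symbol and a group well above background on both arrays, have no common role. Phyhip, which binds a peroxisomal hydroxylase, was at 5.36 and 5.34 with vehicle and not well above background with E2. Its fitted fall was 4.56-fold (adjusted p = 0.00699), and neither E2 reading lay under the floor. Afap1l2, an adaptor of SRC kinase, was at 4.07 and 4.54 with vehicle and also not well above background with E2 (adjusted p = 0.0225). With E2 readings under the floor raised to it, its fall was 2.74-fold. With normexp neither was called, at -0.50 for Phyhip and -0.33 for Afap1l2. Spink13, a protease inhibitor of the Kazal type, read 7.83 and 8.21 with vehicle and 6.14 and 6.62 with E2 and fell 3.11-fold (-1.64 ± 0.19; adjusted p = 0.00153). Uevld read 7.64 and 7.47 with vehicle and 5.26 and 6.43 with E2 (-1.71 ± 0.31; adjusted p = 0.0222). Its E2 arrays differed by more than 1, and without E2 replicate 1 its change was -0.95 and was not called. Fam163a read 6.55 and 6.26 with vehicle and 4.87 and 4.67 with E2 and changed by -1.64 ± 0.24 (adjusted p = 0.00713), or by -0.69 with normexp. Tacc1, which acts at the mitotic spindle and binds nuclear receptors, read 9.89 and 10.16 with vehicle and 8.93 and 9.07 with E2 and fell 2.04-fold (-1.02 ± 0.17; adjusted p = 0.012). Angpt2, an antagonist of the endothelial TIE2 receptor, read 7.65 and 7.52 with vehicle and 6.51 and 6.17 with E2 with no overlap, but its change of -1.25 ± 0.31 did not pass (adjusted p = 0.107).

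**Figure D2:**
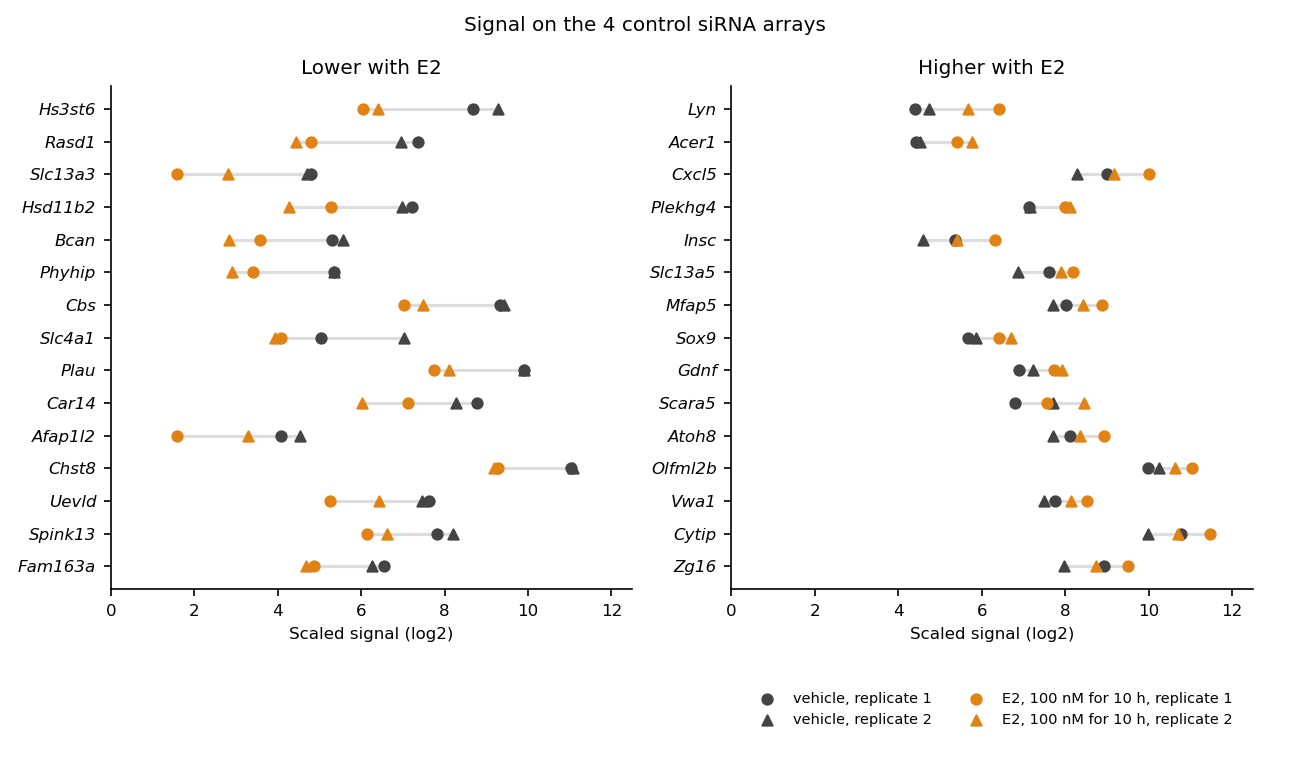
Scaled signal (log2, horizontal axis) on the 4 control siRNA arrays for 15 genes lower with E2 (left) and 15 higher (right), those with the largest changes among called genes with a full symbol that were well above background on both arrays of a group. Circles are replicate 1 and triangles replicate 2, vehicle in grey and E2 in orange; Hs3st6 goes from 8.67 and 9.29 to 6.04 and 6.41, whereas several higher genes such as Zg16 and Cytip overlap between groups and separate only within pairs.

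The higher genes changed less than the lower ones. Lyn, a SRC family kinase, read 4.39 and 4.75 with vehicle and 6.41 and 5.67 with E2. It rose 2.77-fold (1.47 ± 0.29, limma adjusted p = 0.0347), a call that was lost without E2 replicate 1. Acer1, a ceramidase, read 4.42 and 4.52 with vehicle and 5.40 and 5.77 with E2 and rose 2.16-fold (1.11 ± 0.16; adjusted p = 0.00485). No other called gene rose by 1 or more on the log2 scale. Both are dim, and neither was called with normexp, where Lyn changed by 0.46 and Acer1 by 0.40. Plekhg4, a guanine nucleotide exchange factor, was the most even of the leading increases, at 7.14 and 7.16 with vehicle and 7.98 and 8.11 with E2 (0.90 ± 0.11; adjusted p = 0.00229). Cxcl5, a neutrophil chemokine, read 9.01 and 8.27 with vehicle and 10.01 and 9.16 with E2, groups that barely separate although each pair rose by about the same amount (0.94 ± 0.14; adjusted p = 0.00579).

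Sox9, the testis-determining factor downstream of SRY, read 5.66 and 5.87 with vehicle and 6.41 and 6.70 with E2 and rose 1.73-fold (0.79 ± 0.14; adjusted p = 0.0216). The call of Sox9 was lost without E2 replicate 1, without the block (limma adjusted p = 0.712) and with normexp (change 0.40). Its relative Sox8 read 5.35 and 5.27 with vehicle and 6.01 and 6.00 with E2, a change of 0.70 ± 0.15 that narrowly missed (adjusted p = 0.0579). Gdnf, a growth factor that Sertoli cells secrete, rose 1.71-fold (0.77 ± 0.14; adjusted p = 0.021). Of 16 measured genes of the Sertoli cell and testis list, Sox9 rose, none fell and 15 did not pass, with a list median of 0.08. Clu (-0.06), Cyp26b1 (-0.51) and Dhh (0.34) were the brightest of these. The remaining 9 leading increases were smaller than 1. Slc13a5, a citrate carrier, read 7.60 and 6.87 with vehicle and 8.20 and 7.91 with E2 (0.82 ± 0.13), and its 2 probes rose by 0.81 and 0.83. Insc, an adaptor that orients the mitotic spindle, read 5.37 and 4.59 with vehicle and 6.32 and 5.42 with E2 (0.89 ± 0.17) and was not called with normexp (change 0.31). These genes have unrelated roles. The matrix genes Mfap5 (0.80 ± 0.13), Vwa1 (0.71 ± 0.12) and Olfml2b (0.72 ± 0.13) rose, and without E2 replicate 1 Olfml2b changed by 0.47 and was not called. Atoh8, a helix-loop-helix factor, read 8.12 and 7.72 with vehicle and 8.93 and 8.35 with E2 (0.72 ± 0.11). Scara5, a ferritin receptor, read 6.78 and 7.71 with vehicle and 7.55 and 8.44 with E2 (0.75 ± 0.12). The 2 groups of Scara5 overlapped, as did those of Cytip (0.71 ± 0.14) and Zg16 (0.68 ± 0.10), and only the pairs separate them.

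Smaller decreases were called in single genes of lipid and insulin pathways. Lpl, the lipoprotein lipase that releases fatty acids at the cell surface, read 13.45 and 12.91 with vehicle and 12.51 and 11.99 with E2, and fell 1.91-fold (-0.93 ± 0.10; adjusted p = 0.00106). Gpam (-0.93 ± 0.15), Mboat2 (-0.55 ± 0.09) and Agpat5 (-0.52 ± 0.09), acyltransferases of glycerolipid synthesis, fell as well. These 4 were the calls among 26 measured genes of a family picked after its values were seen. Sc5d, a late enzyme of cholesterol synthesis, changed by -0.60 ± 0.09 and was the only call among 24 genes of that pathway, in which Msmo1 (-0.11), Fdps (-0.04) and Ebp (0.02) were brightest. Irs1, an adaptor of the insulin and IGF1 receptors, changed by -0.48 ± 0.09 and was the only call among 14 measured genes of the insulin-like growth factor system. Pik3cd, a catalytic subunit of PI3 kinase, fell 2.41-fold (-1.27 ± 0.13), and Pik3ip1, an inhibitor of that enzyme, rose 1.37-fold (0.46 ± 0.09). Both are from a family of 17 measured genes that was picked after its values were seen. Htra1 (0.03), Igfbp2 (-0.13) and Igf1 (0.19) were the brightest members of the growth factor list and did not pass.

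Of 26 measured granulosa identity genes, 2 were called, beside 1.16% of all genes. Besides Hsd11b2, Nr5a2, the nuclear receptor LRH-1 that drives ovulation genes, fell by 0.53 ± 0.10 (adjusted p = 0.0249). None was called higher and 24 did not pass. The list median was -0.10, with 8 changes above 0 and 18 below. At an unadjusted p under 0.05 (limma) the list held 11 genes, beside 10.1% of all genes. Kctd14 (-0.16), Amhr2 (0.21) and Inha (-0.19) were the brightest. Among transforming growth factor genes, Id1, a target of BMP signals, changed by -0.62 ± 0.09 and was the only call of 40, with Inha, Inhba (0.02) and Id3 (-0.29) the brightest of the rest. Of 24 immediate early genes, Dusp1, a phosphatase of MAP kinases, rose by 0.50 ± 0.09 and none fell, and Jund (-0.05), Klf6 (0.08) and Fosl2 (-0.07) did not pass. Ppp1r15a, which ends the translation block of the stress response, changed by -0.44 ± 0.09 and was the only call of 32 genes of endoplasmic reticulum stress and the ATF4 response. There Hspa5 (-0.10), Gars (-0.08) and Slc3a2 (0.08) did not pass. A pair of semaphorins, guidance ligands picked after their values were seen, went opposite ways, with Sema7a at -1.28 ± 0.11 and Sema3f at 0.67 ± 0.14. Without vehicle replicate 1 the change of Sema3f was 0.36 and was not called.

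In 8 of the 22 gene lists no member was called. These were the estrogen receptors and their coregulators (13 measured genes), glutathione and antioxidant defence (32), the gonadotropin and cAMP response (27), the angiopoietin and VEGF family (14), the WNT pathway (34), proliferation (38), the interferon response (31) and glycolysis (33). Their brightest members, such as Sod1 (-0.06), Cebpb (-0.43), Angptl4 (-0.31), Sfrp4 (0.09), Cdk4 (0.03), Isg15 (-0.08) and Aldoa (-0.05), had changes that did not pass. At an unadjusted p under 0.05 these lists held 1, 2, 7, 3, 8, 4, 4 and 5 genes in the same order, beside 10.1% of all genes. Cdk4, Mcm6 (0.11) and Ccnd3 (0.02) were the brightest of the proliferation genes. Of the proliferation list 33 changes were above 0 and 5 below, with a median of 0.08. Of the interferon list 8 were above 0 and 23 below, with a median of -0.04. No test was made of these tallies. Over all 22 lists together, 549 different genes were measured, and 20 of them (3.64%) were called, 18 lower and 2 higher, beside 1.16% of all genes. Without E2 replicate 1 this count was 5, without E2 replicate 2 it was 9, and without the block it was 3. The lists were drawn up with earlier results of these data known, so the share was not tested. List medians lay between -0.10 and 0.08.

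**Figure D3:**
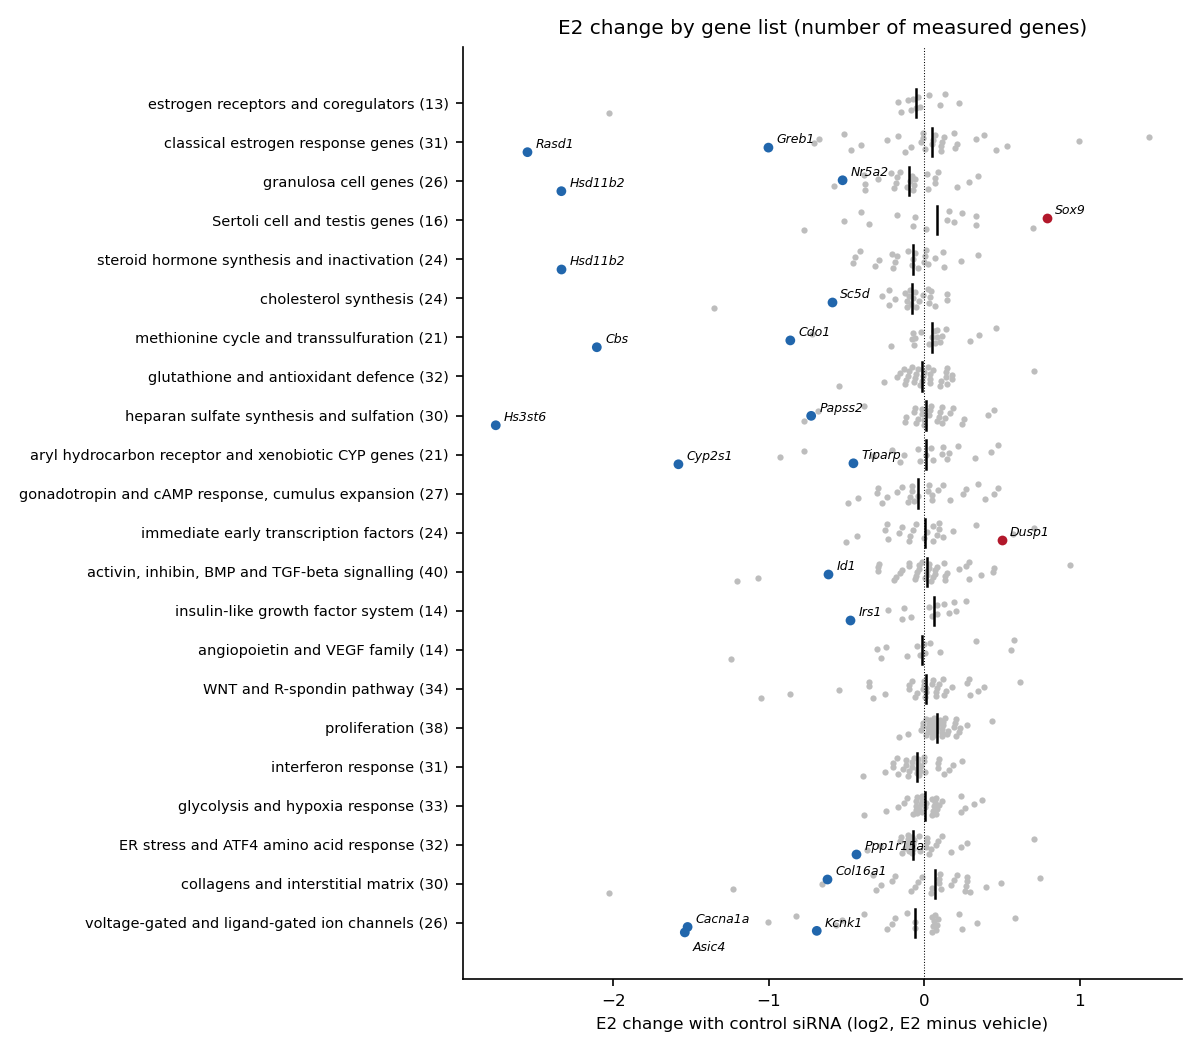
Change with E2 (log2, E2 minus vehicle) on the horizontal axis for each measured gene of the 22 lists, with the number of measured genes in brackets. Each point is a gene, coloured and named where called (blue lower, red higher), and the black line is the median of the list; all medians lie between -0.10 and 0.08, and no list holds more than 3 called genes.

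Markers of other cells were read in the same arrays, since the cultures were mostly but not only granulosa cells. In bulk RNA, fewer cells of a type and less RNA per cell cannot be told apart. Of 11 oocyte genes, 8 were not well above background on any of the 4 arrays, among them Bmp15, Zp1, Zp2 and Zp3, while Gdf9 was on all 4. Of 11 macrophage genes, Ptprc, Lyz2, C1qa, C1qc and Tyrobp were not on any array. The macrophage genes C1qb, Cd14, Cd68, Csf1r, Adgre1 and Fcer1g were well above background on all 4. Among 9 endothelial genes, Vwf, Cdh5, Tek, Emcn and Cldn5 were not on any array, and Kdr, Pecam1 and Egfl7 were on all 4. Summed signal of the macrophage list was 690 and 705 with vehicle and 630 and 652 with E2, and that of the endothelial list 4030 and 3021 against 3540 and 3137. The smooth muscle and fibroblast sum was 23140 and 36920 with vehicle and 22610 and 40340 with E2, so that it followed the replicate number. Summed surface epithelium markers were 20030 and 17860 with vehicle and 20290 and 20020 with E2, theca markers 8893 and 7724 against 8831 and 6277, luteal markers 103600 and 89310 against 105200 and 92990, and oocyte markers 153 and 194 against 131 and 225. In these 7 lists 1 gene was called: Upk1b, a urothelial and mesothelial membrane protein, which read 6.36 and 5.82 with vehicle and 6.93 and 6.54 with E2 and rose by 0.64 ± 0.13 (adjusted p = 0.0384). All 8 measured surface epithelium genes had a change above 0, with a list median of 0.31, and with normexp the change of Upk1b was 0.34 and was not called. Whether such cells contributed to the genes that rose was not tested.

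The same E2 contrast on the FOXL2 siRNA arrays, which are different samples, gave values of the other sign for most of these genes under the labels as deposited. With the treatment labels of the control siRNA arrays exchanged, the genes counted here as opposite would have the same sign in both arms. Of the 142 genes lower with control siRNA, 130 (91.5%) had a change above 0 with FOXL2 siRNA, with a median of 0.47. Of the 40 higher genes, 38 (95%) had a change below 0, with a median of -0.38. Over all genes tested, 50.4% had opposite signs in the 2 arms. With FOXL2 siRNA, E2 changed 96 genes (0.614%), 72 higher (0.46%) and 24 lower (0.153%). Of the 142 lower genes, 52 were called higher there, and 1, Capn11, was called lower. Of the 40 higher genes, 7 were called lower there and none higher. Thus 60 genes were called in both arms, 33.0% of the calls with control siRNA and 62.5% of those with FOXL2 siRNA. The number called with FOXL2 siRNA was 42 without FOXL2 siRNA vehicle replicate 1 and 61 without FOXL2 siRNA E2 replicate 1, and 2 without the replicate block. Capn11, a calpain protease, read 9.16 and 8.58 with vehicle and 8.15 and 8.22 with E2 under control siRNA, and 10.27 and 10.16 against 8.62 and 8.42 under FOXL2 siRNA.

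**Figure D4:**
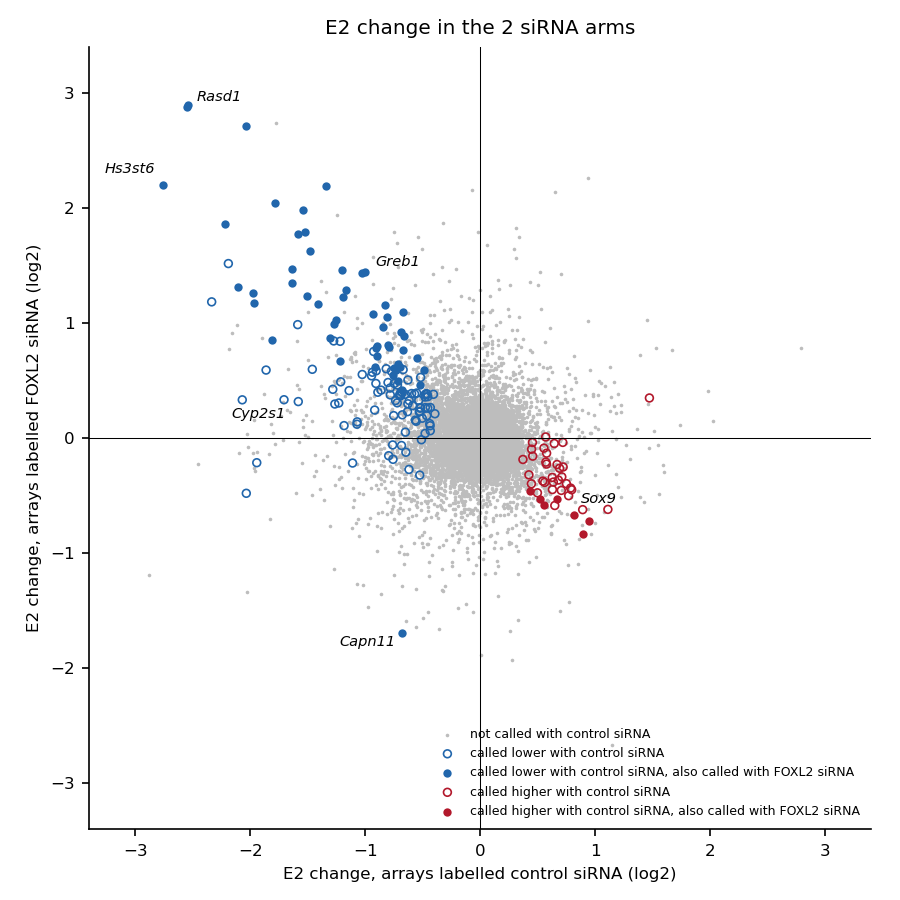
Change with E2 on the arrays labelled control siRNA (horizontal axis) against that on the arrays labelled FOXL2 siRNA (vertical axis), both log2, for all genes tested. Filled points were called in both arms; 130 of the 142 genes lower with control siRNA lie above the horizontal zero line and 38 of the 40 higher genes lie below it. The axes end at 3.4 and leave out 2 genes.

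Levels on all 8 arrays show where the called genes stood. Relative to each gene's mean over the 8 arrays, the 142 lower genes had medians of 0.50 and 0.50 on the control siRNA vehicle arrays and -0.35 and -0.31 on the control siRNA E2 arrays. On the FOXL2 siRNA arrays the medians were -0.27 and -0.38 with vehicle and 0.23 and 0.13 with E2. For the 40 higher genes they were -0.32 and -0.50, then 0.28 and 0.11 with control siRNA, and 0.45 and 0.10, then 0.04 and -0.12 with FOXL2 siRNA. For the lower genes the control siRNA E2 arrays thus read close to the FOXL2 siRNA vehicle arrays, and the FOXL2 siRNA E2 arrays lay above both. No test was made of these medians, since the genes were chosen on 4 of the 8 arrays.

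Greb1 followed this pattern only in part, since its FOXL2 siRNA vehicle arrays read below its control siRNA E2 arrays (13.75 and 13.58). With FOXL2 siRNA it read 13.06 and 12.25 with vehicle and 14.35 and 13.86 with E2, an increase of 1.45 ± 0.14 (adjusted p = 0.000403), and the 2 E2 effects differed by 2.45 ± 0.19 (adjusted p = 3.24e-05). Hs3st6 read 5.79 and 6.01 with vehicle and 8.05 and 8.15 with E2 and rose by 2.20 ± 0.14 (adjusted p = 3.61e-05). On neither FOXL2 siRNA vehicle array was Rasd1 well above background, and it read 6.29 and 5.14 with E2. Cyp2s1 moved in one arm only by the test, at 9.87 and 9.93 with vehicle and 10.24 and 10.19 with E2 under FOXL2 siRNA (change 0.32 ± 0.08; adjusted p = 0.196), and the difference of 1.90 passed (adjusted p = 8.58e-06). Sox9 read 8.39 and 8.46 and then 7.71 and 8.27 with FOXL2 siRNA, above all 4 control siRNA arrays, and its change there of -0.43 ± 0.14 did not pass (adjusted p = 0.374). Nr5a2 had a change below 0 in both arms, at -0.53 and -0.32. The difference between the 2 E2 effects was called in 332 genes (2.12%), 229 of them above 0 (1.46%) and 103 below 0 (0.659%). It was called in 127 of the 142 lower and 34 of the 40 higher genes. The count was 158 genes without control siRNA E2 replicate 1, in 196 without control siRNA E2 replicate 2 in 191 without FOXL2 siRNA vehicle replicate 1 and in 38 without the block. The genes were picked for their change with control siRNA, which is 1 of the 2 terms of that difference.

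**Figure D5:**
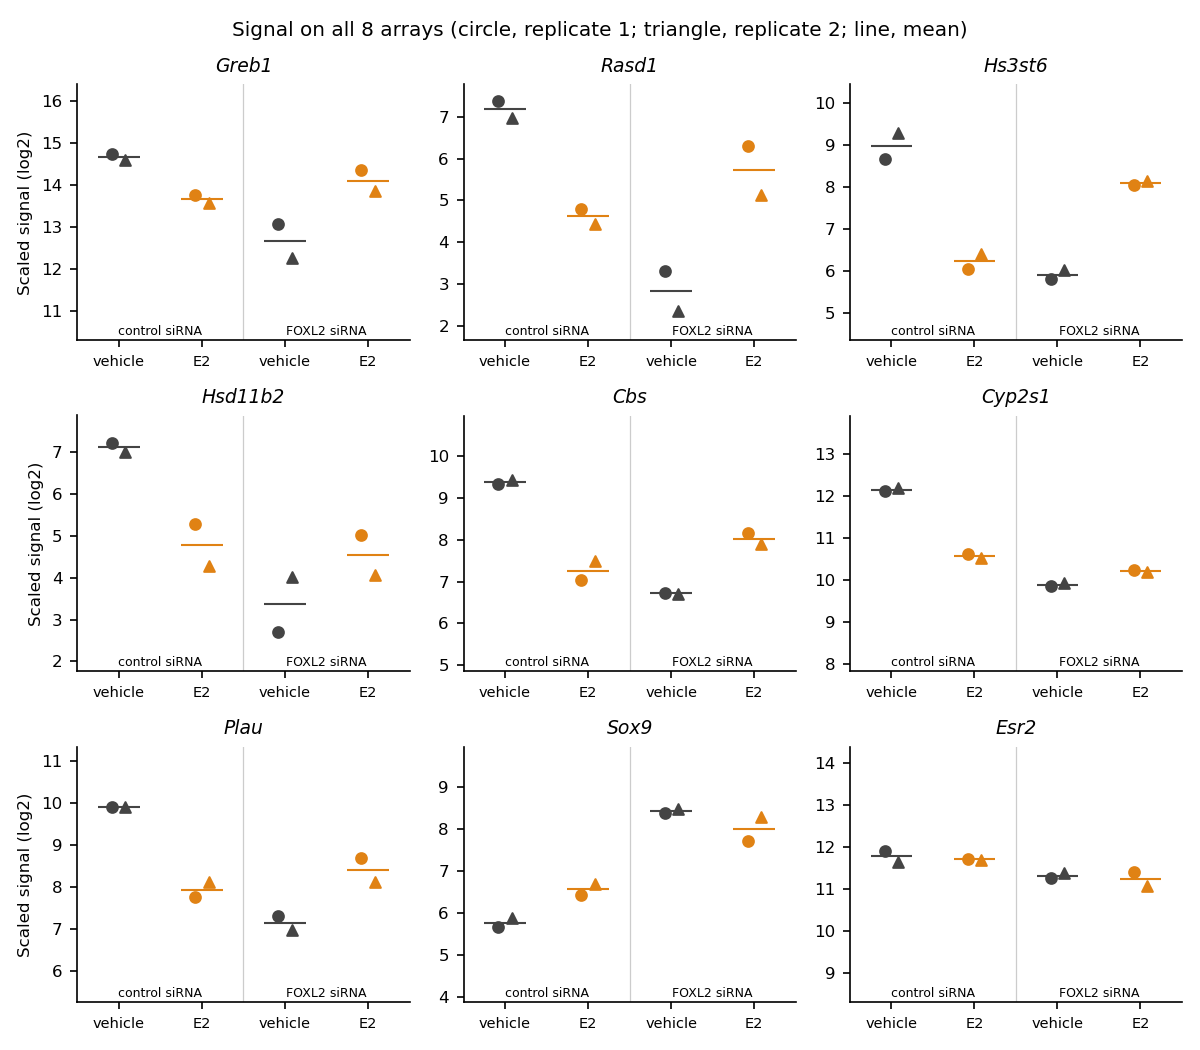
Scaled signal (log2, vertical axis) of 9 genes on all 8 arrays, by siRNA and treatment, with circles for replicate 1, triangles for replicate 2 and a line at the mean. Each vertical axis spans the same range; Greb1, Rasd1, Hs3st6, Cbs and Plau fall with E2 under control siRNA and rise with E2 under FOXL2 siRNA, whereas Esr2 changes by -0.07 in both.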

How the data were processed

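Total RNA of 8 cultures was labelled with Cy3 and hybridised to one-colour Agilent mouse arrays on 1 slide. Per the file headers, each deposited file gives the intensity of 62976 spots as processed by the authors with Feature Extraction 11.5.1.1, background-subtracted. The authors also deposited a value table on the log2 scale, used here as an alternative. Control spots (3671) and 42 probes with outlier flags were left out. Processed intensity was divided by the 75th percentile of its array, multiplied by a common reference of 319.9, averaged over the spots of 55639 probes and then over the probes of a gene, and converted to log2. No spot was saturated, and the number of arrays limits the precision.

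Genes were tested with limma 3.58.1 in R 4.3.3 (lmFit, eBayes with an intensity trend) on 4 group means plus the replicate number as a block, with 3 residual degrees of freedom, over all 8 arrays, and p-values were adjusted by Benjamini and Hochberg over 15637 genes. The pairing comes from the labels: a replicate number marks a pool of 5 mice in the growth protocol, and the methods subtract a value per replicate. Deviations from group means correlated at 0.33 to 0.44 between samples of the same number in different groups. Replicate number also coincides with the row on the slide, and these cannot be told apart. All arrays were scanned once on the same slide.

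The genes named are, in each direction, the 15 called genes with the largest change that moved the same way in both pairs, were well above background on both arrays of a group and have a symbol that is no clone or predicted name (larger decreases without these, such as Pabpn1l, are not named), a set of 12 genes (Foxl2, Esr1, Esr2, Cyp19a1, Hsd11b2, Tacc1, Angpt2, Cbs, Sox8, Sox9, Cyp2s1 and Hs3st6), and from each list the called members and the 3 brightest others. Members, lists and tests were chosen with earlier results of these data known. Where a gene was not well above background on either array of a group, readings under the floor of their array were raised to it. A fold or difference so obtained carries no error. Where no reading was under the floor it equals the fitted value. Alternatives were no block, a random block, control siRNA arrays alone, quantile normalization, normexp, the deposited value table, no filter, only genes well above background, the brightest probe, no intensity trend and each array left out. Sequences came from the RefSeq promoter table (GRCm38.p6).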

Additional observations from a re-analysis of the deposited data

Results flagged for a closer look

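The effect of E2 on the FOXL2 siRNA arrays minus its effect on the control siRNA arrays was tested for the 15 leading genes in each direction and the set of 12 genes named throughout. Hs3st6, Hsd11b2, Cbs and Sox9 belong to both sets. In 31 of the genes it passed (limma, adjusted p under 0.05), beside 332 of all 15637 genes tested (2.12%). The leading genes were chosen on the change with control siRNA, 1 of the 2 terms of this difference. The size of the difference, and in some genes its sign, depends on the treatment labels as deposited. With the labels of the control siRNA arrays exchanged, changes that are opposite in the 2 arms would largely cancel in it.

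In the genes lower with E2 under control siRNA the difference was above 0 on the log2 scale. Where a group was not well above background on either array, the fitted value is not a measured size. The FOXL2 siRNA vehicle group was such a group for Rasd1 (5.43), Angpt2 (3.18, its change with control siRNA not called) and Fam163a (2.99). The control siRNA E2 group was one for Phyhip (3.71). No reading of these genes in these groups lay under the floor. For Afap1l2 the control siRNA E2 group was also one, and the fitted 2.45 became 2.05 with readings under the floor raised to it. For Slc13a3 both of these groups were, and the fitted 5.44 became 4.68 in the same way. Hsd11b2 (3.52) and Bcan (4.09) had a group well above background on 1 array. Above background throughout were Hs3st6 (4.95), Cbs (3.41), Plau (3.24), Car14 (3.14), Spink13 (3.11), Chst8 (2.66), Uevld (2.04), Cyp2s1 (1.90) and Tacc1 (1.58).

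In the genes higher with E2 under control siRNA the difference was below 0 and smaller. It was -1.74 for Plekhg4, -1.73 for Acer1, -1.67 for Cxcl5, -1.51 for Insc and -1.49 for Slc13a5. Sox9 (-1.22), Gdnf (-1.27) and Sox8 (-1.01), whose own change with control siRNA was not called, were among them. The rest were Mfap5 (-1.25), Cytip (-1.16), Scara5 (-1.15), Zg16 (-1.05), Vwa1 (-1.05) and Atoh8 (-0.97).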

How the results depend on the processing

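Numbers of calls moved with the model more than with the scaling. The main counts were 182 genes for the E2 effect with control siRNA, 96 for that with FOXL2 siRNA and 332 for their difference. Without the replicate block they were 3, 2 and 38, and the genes of the lists fell from 20 called to 3. With the replicate number as a random block, an alternative chosen after seeing the data, they were 41, 21 and 116. Without the intensity trend they were 2, 4 and 77, and without the filter on dim genes 14, 19 and 91, with 202 targets by the rule of the study in place of 71. The control siRNA arrays alone gave 698 calls, 230 higher and 468 lower. Leaving out 1 array gave 38 to 239, 42 to 114 and 158 to 318 calls, and 5 to 17 among the list genes. The lowest count with control siRNA was without E2 replicate 1 (38) and the next without E2 replicate 2 (65). Quantile normalization (139), normexp (200), the deposited value table (156), only genes well above background (198) and the brightest probe (197) stayed within 1.5 times of 182, and the median change of all genes moved by less than 0.1 under each alternative.

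Of 60 called genes tracked under every alternative, none changed sign. Among them 3 remained called without the block, 17 with the random block, 48 with quantile normalization, 51 with normexp and 55 with the deposited table, and 15 to 60 when 1 array was left out. The changes of genes that were not called turned sign in 5 cases: Cyp19a1 was -0.025 and Esr1 -0.062 with normexp, and with 1 array left out Cyp19a1 ranged from -0.29 to 0.43 and Esr2 from -0.16 to 0.017. The cause of these shifts was not tested. Dim signal limits the rest: 178 genes tested were not well above background on any of the 4 control siRNA arrays.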

Other observations

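The largest change of any gene tested belonged to Tlr4, the receptor for bacterial lipopolysaccharide, and was not called (4.40, adjusted p = 0.262 in limma). It rests on 1 array, since Tlr4 read 4.23 and 4.10 with vehicle and 4.61 and 12.53 with E2.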
